A study of Oryza sativa with 20 samples.

Results

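The small RNA of the lamina joint and of the blade of the first complete rice leaf was compared at stage S2. Members were chosen by sample title alone, which gave 4 of the 20 libraries of the series, 2 of lamina joint S2 and 2 of blade S2. Plants were rice (Oryza sativa) seedlings grown in water, and the labels name no cultivar, genotype or treatment that sets the groups apart. Tissue was cut on 5 days after germination, in pieces under 1 mm for the lamina joint and under 10 mm for the blade, per the labels' protocols. The labels do not tie a day to a stage, so S2 is used as a name only. The other 16 libraries were 2 for each tissue at S1, S3, S4 and S5. They entered the estimate of spread, the scaling and the filter on low counts. They also showed the S2 tags at other stages and served in tests against S2 and between stages.

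In grasses the lamina joint links the leaf sheath to the blade. Growth and division of its cells tilt the blade away from the stem and so set the leaf angle, a process in which brassinosteroid and auxin are known to act. Plant miRNAs are cut from hairpin precursors by a Dicer-like enzyme and loaded into Argonaute proteins, where they direct cleavage or translational repression of matching transcripts. Many conserved plant miRNAs target transcription factors that shape leaf and organ development. The count files list numbered tags and do not pair them with miRNA names or sequences, so no tag can be assigned here to a family or a target. Tags are therefore described by number or by abundance rank, level, tissue and stage, and no more than 2 tags per direction and comparison carry their number.

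The S2 libraries held 351372 and 694117 counts in lamina joint and 394429 and 194799 counts in blade. Of the 685 listed tags, 420 had a count in at least 1 S2 library and 296 in all 4. The 299 tags that passed the filter on low counts held at least 99.9% of the counts of each library, and 268 of them had counts in all 4 S2 libraries. Spearman correlations across those 299 tags were 0.958 between the lamina joint replicates, 0.947 between the blade replicates and 0.848 to 0.890 between libraries of different tissue. The points of such a correlation share their libraries and are not independent. The median absolute log2 difference per tag was 0.47 between lamina joint replicates, 0.52 between blade replicates and 0.66 to 0.92 across tissues. The counts of replicates differed beyond sampling noise, by a chi-square of 65.2 per degree of freedom in lamina joint and 40.7 in blade. The labels do not state whether replicates are separate plants, so p-values measure the spread between libraries, which may be technical.

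At S2, 46 of the 299 tags (15.4%) differed between lamina joint and blade in edgeR's quasi-likelihood test at an adjusted p under 0.05. Most of them were lower in the lamina joint: 37 tags (12.4%) were lower and 9 (3.01%) were higher. The median fitted difference, lamina joint minus blade, was -2.43 on the log2 scale among the 37 lower tags and 2.53 among the 9 higher ones, against -0.09 over all 299 tags. More than 4-fold differences were fitted for 27 of the 37 lower and 6 of the 9 higher tags. In all 46 tags both lamina joint libraries lay on the same side of both blade libraries; such a separation was found in 55.9% of all tested tags, so it is by itself no mark of the 46. Levels are in CPM, the reads of a tag per 1e+06 reads of a library, on library sizes scaled by TMM (trimmed mean of M values). The TMM factors were 1.65 and 1.17 in lamina joint S2, against 1.11 and 1.36 in blade S2. That of the first lamina joint S2 library was the highest of the series. In bulk tissue, fewer cells of a kind and less RNA per cell cannot be told apart.

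**Figure D1:**
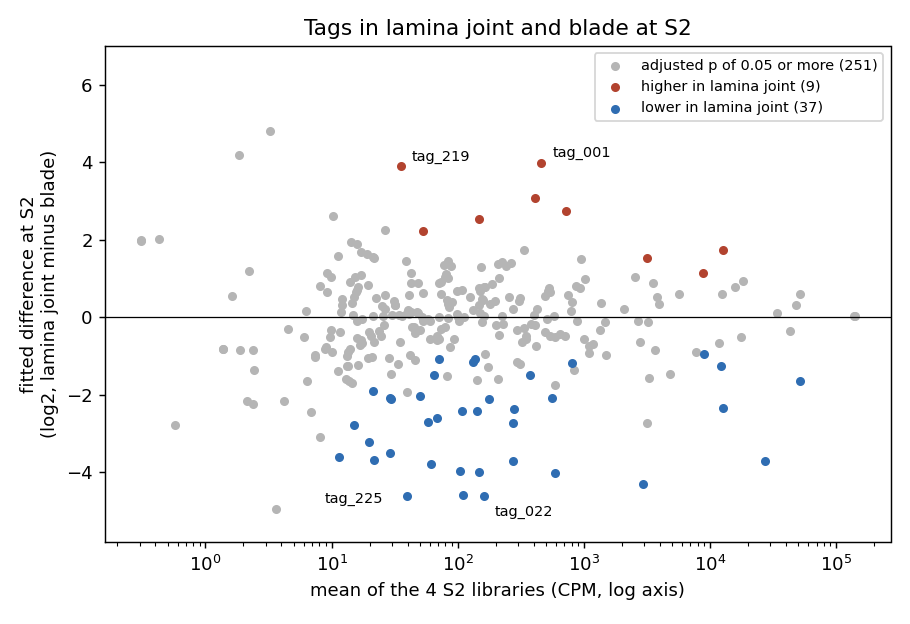
Fitted difference at S2 (log2, lamina joint minus blade) against the mean level over the 4 S2 libraries (CPM, log axis); each point is a tag, and 2 tested tags without a count at S2 are not drawn. The 37 lower tags outnumber the 9 higher ones and run down to -4.62, at levels from 11.5 to 51892 CPM.

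Lower tags outnumbered higher ones under every scaling tried, but the size of the excess varied. Upper quartile factors moved the median of all tags to 0.21 and gave 11 higher and 23 lower tags, TMM without the most abundant tag gave 13 and 26, and total counts without that tag 12 and 23. The 46 calls became 28 and 21 without the first and the second lamina joint S2 library, 27 and 28 without the first and the second blade S2 library, and 30 without either blade S4 library. Leaving out a library of another stage also moved the scaling: without either blade S4 library the median of all tags was 0.19 and the calls were 11 higher and 19 lower, and without the first or the second blade S5 library they were 13 and 21 or 13 and 20. All 9 higher tags and 21 of the 37 lower ones kept their call under each of the 5 other scalings. Each of these moved the median of all tags upward, from -0.09 to between 0.02 and 0.21. That shift favours higher calls and works against lower ones. The 9 and the 37 were thus not put to the same test, and their shares kept are not compared. Over 32 refits, 3 of the 9 higher and 9 of the 37 lower tags kept their call every time.

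The 9 higher tags spread over levels from 35.7 to 12642 CPM. Tag_001 had 615 and 1121 CPM in lamina joint S2, against 66.0 and 41.6 CPM in blade S2. The groups were far apart, although the lamina joint replicates themselves differed. In the fit it was 15.9-fold higher, a log2 difference of 3.99 ± 0.64 (SE) with an edgeR adjusted p of 0.00113.

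Tag_219 was rarer, with 69.1 and 65.3 CPM in lamina joint S2, against 4.55 and 3.78 CPM in blade S2. Its lamina joint level came from 93 counts and its blade level from 3, so both blade values lie below the level of 3 counts. The ratio of summed counts was 15.7 (exact 95% binomial interval 5.20 to 77.4, counting error only), and the fitted difference 3.91 ± 0.72 (SE) on the log2 scale, with an edgeR adjusted p of 0.00251. Both tags kept their call in all 32 refits.

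The other 7 higher tags ranked from 13th to 168th in abundance at S2. Of these, the 3 with at least 1000 CPM are given by rank, a choice made after their values were seen. The 13th had 19887 and 19038 CPM in lamina joint S2, against 6359 and 5284 CPM in blade S2, a fitted 3.34-fold difference (edgeR adjusted p = 0.00428). The 18th had 12400 and 11878 CPM in lamina joint S2, against 6215 and 4672 CPM in blade S2, or 2.23-fold (edgeR adjusted p = 0.0209). The 28th had 4390 and 4996 CPM in lamina joint S2, against 1684 and 1540 CPM in blade S2, or 2.91-fold (edgeR adjusted p = 0.0159). In these abundant tags the replicates of either tissue lay close together, and the differences were smaller than in tag_001 and tag_219.

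The 2 largest fitted differences among the 37 lower tags were those of tag_022 and tag_225. Tag_022 had 15.5 and 9.85 CPM in lamina joint S2, against 371 and 253 CPM in blade S2. The tissues did not overlap, and the lamina joint level rested on 17 counts in all, giving a count ratio of 0.0374 (exact 95% binomial interval 0.0214 to 0.0612). The fitted difference was -4.62 ± 1.35 (SE) on the log2 scale, with an edgeR adjusted p of 0.0311. The error was wide, and the lamina joint S1 replicates of this tag were far apart, at 8.28 and 1389 CPM. It missed the threshold in 15 of 32 refits (fitted difference -5.07 to -4.10, edgeR adjusted p up to 0.274). Those 15 were limma-voom, robust estimation, scaling to totals that omit the most abundant tag, and leaving out any S2 library, either library of lamina joint S4, blade S4 or blade S5, or the second of lamina joint S3 or of blade S3.

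Tag_225 had 5.18 and 1.23 CPM in lamina joint S2, against 100.1 and 53.0 CPM in blade S2. Only 4 lamina joint counts were seen, against 58 in blade, a ratio of 0.0349 (exact 95% binomial interval 0.0092 to 0.0942). The fitted difference was -4.61 ± 0.66 (SE) on the log2 scale, with an edgeR adjusted p of 0.000626, and the call held in all 32 refits. The other 35 lower tags had fitted differences between -4.59 and -0.94, and 6 of the 37 rested on under 10 lamina joint counts.

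**Figure D2:**
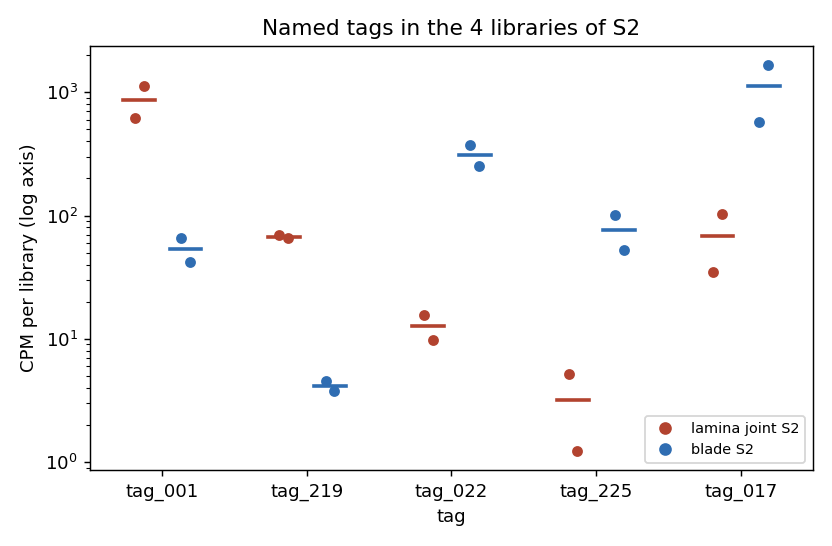
Level of 5 tags (CPM, log axis) in the lamina joint S2 libraries (left of each pair) and the blade S2 libraries (right); points are libraries and bars their means, n = 2. Tag_001 and tag_219 sit higher in lamina joint S2, and tag_022, tag_225 and tag_017 lower, with no overlap.

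Most counts were in a few tags, and most of these were not called. The 10 most abundant tags at S2 held 70.1% and 76.5% of the counts in lamina joint S2, against 74.3% and 73.3% in blade S2 (exact 95% binomial intervals within 0.2 percentage points). The most abundant tag had 130819 and 153602 CPM in lamina joint S2, against 131758 and 147073 CPM in blade S2. The second had 105024 and 176678 CPM in lamina joint S2, against 150436 and 123526 CPM in blade S2. For both tags the tissues overlapped, with log2 differences of 0.03 ± 0.21 and 0.04 ± 0.35 (SE) in the fit and edgeR adjusted p of 0.964 and 0.973.

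Of those 10 tags, the third and the eighth were lower in lamina joint S2 and none was higher. The third had 24511 and 26134 CPM in lamina joint S2, against 72704 and 84221 CPM in blade S2. Its fitted difference was -1.63 ± 0.29 (SE) on the log2 scale, with an edgeR adjusted p of 0.00216. The eighth had 4009 and 3810 CPM in lamina joint S2, against 72682 and 29452 CPM in blade S2. Its fitted difference of -3.71 ± 0.43 (SE) on the log2 scale, with an edgeR adjusted p of 0.00015, had the smallest p of all tags at S2, although its blade replicates were more than a factor of 2 apart. Both kept their call in all 32 refits.

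The other 8 of the 10 had fitted differences between -0.51 and 0.94 with edgeR adjusted p from 0.275 to 0.973. Of these, the ninth had 16971 and 30984 CPM in lamina joint S2, against 15855 and 9218 CPM in blade S2, and did not pass the threshold (0.94 ± 0.57, log2, SE; edgeR adjusted p = 0.310). A p above the threshold does not show that such tags are equal, given errors of 0.21 to 0.57.

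**Figure D3:**
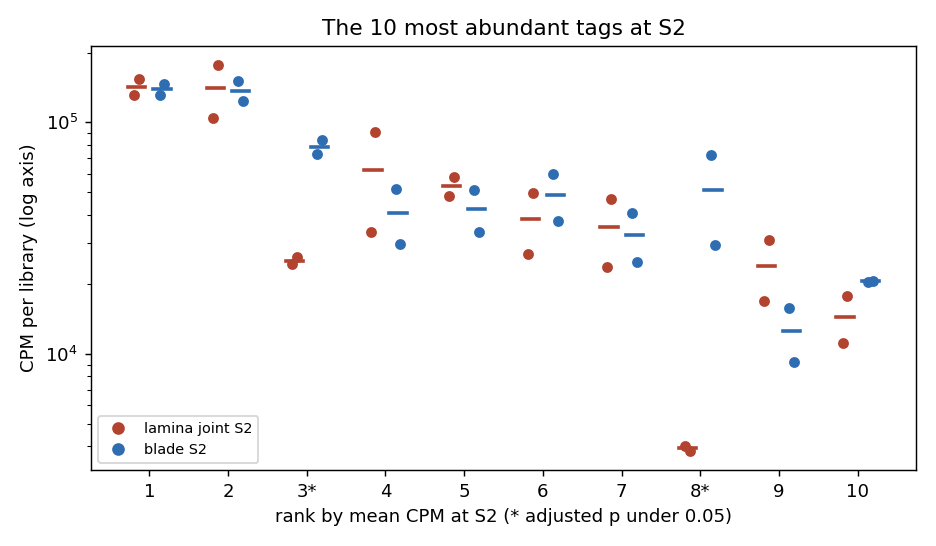
Level (CPM, log axis) of the 10 most abundant tags at S2, by rank, in lamina joint S2 (left of each pair) and blade S2 (right); points are libraries, bars their means, n = 2, and a star marks an adjusted p under 0.05. The third and the eighth sit lower in lamina joint S2, near 25322 against 78463 CPM and 3910 against 51067 CPM.

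Raw shares, which need no scaling factor, show how much of each library the 46 tags made up. They describe tags picked for this difference. The 37 lower tags took 7.85% (exact 95% binomial interval 7.76 to 7.94) and 5.85% (5.80 to 5.91) of the counts in lamina joint S2, against 23.4% (23.3 to 23.6) and 24.0% (23.8 to 24.2) in blade S2. The 9 higher tags took 6.45% (6.37 to 6.54) and 4.68% (4.63 to 4.73) in lamina joint S2, against 1.65% (1.61 to 1.69) and 1.60% (1.54 to 1.65) in blade S2. The lower tags thus held a larger part of the blade libraries than the higher tags held of the lamina joint libraries. Most of that part came from the third and the eighth most abundant tags. They took 8.10% and 8.10% of the first blade S2 library, and 11.4% and 4.00% of the second. Besides the third and the eighth, the abundant lower tags were the 12th, 15th, 17th and 30th, and the 15th and 17th kept their call in only 12 of 32 refits. The 30th had 218 and 355 CPM in lamina joint S2, against 6024 and 5160 CPM in blade S2, a fitted difference of -4.29 ± 0.97 (SE) on the log2 scale, with an edgeR adjusted p of 0.00829.

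Presence in a single tissue was confined to rare tags among the 685 listed. At S2, 8 tags had counts in both lamina joint libraries and neither blade library, and 8 had counts in both blade libraries and neither lamina joint library. None of these 16 had more than 9 counts in all, where 3 counts correspond to 3.69 to 11.3 CPM in these libraries. At this depth such tags do not show that a tissue lacks them. The 386 untested tags together held 195 and 251 counts in lamina joint S2, against 181 and 92 counts in blade S2.

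The tags called at S2 were then followed in the libraries of the other stages, which entered the choice of these tags through the shared estimate of spread, the scaling and the filter on low counts. All 9 higher tags had a fitted difference above 0 at S1 and at S3, and 8 of 9 at S4 and at S5, where 47.8%, 44.8%, 49.2% and 53.2% of all tested tags did. Their median difference was 2.65 at S1, 2.53 at S2, 1.64 at S3, 1.30 at S4 and 0.97 at S5 on the log2 scale. Of these 9, 5 also passed the threshold at S1 (3 without the second blade S2 library), where 3.01% of all tested tags were higher. Tag_001, for example, had a fitted difference of 4.51 at S1 and 1.58 at S3, and tag_219 of 4.23 and 1.83.

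The lower tags were followed in the same way. Of the 37, 8 also passed the threshold as lower at S1, where 4.68% of all tested tags did, and 7 at S3, where 2.34% did. Dropping replicate 2 of lamina joint S1 raised the count at S1 to 14. Dropping any of 10 other libraries lowered it to 5, namely either one of lamina joint S3, lamina joint S4 or blade S4, replicate 1 of lamina joint S1 or of blade S2, or replicate 2 of blade S1 or of blade S3. The count at S3 was 11 without either lamina joint S1 library, 7 and 6 without a lamina joint S5 library and 0 to 4 without any other. At S3, 36 of the 37 had a fitted difference below 0, and at S1 31 of them, where 53.8% and 51.8% of all tested tags did. At S4 and S5 the counts were 22 and 20 of 37, beside 50.5% and 45.8% of all tested tags. The median difference of the 37 was -1.24 at S1, -2.43 at S2, -1.20 at S3, -0.29 at S4 and -0.08 at S5 on the log2 scale. For 29 of the 37 the lowest fitted difference of the 5 stages was that of S2, the stage they were chosen at, which favours S2 in this count and in the median.

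**Figure D4:**
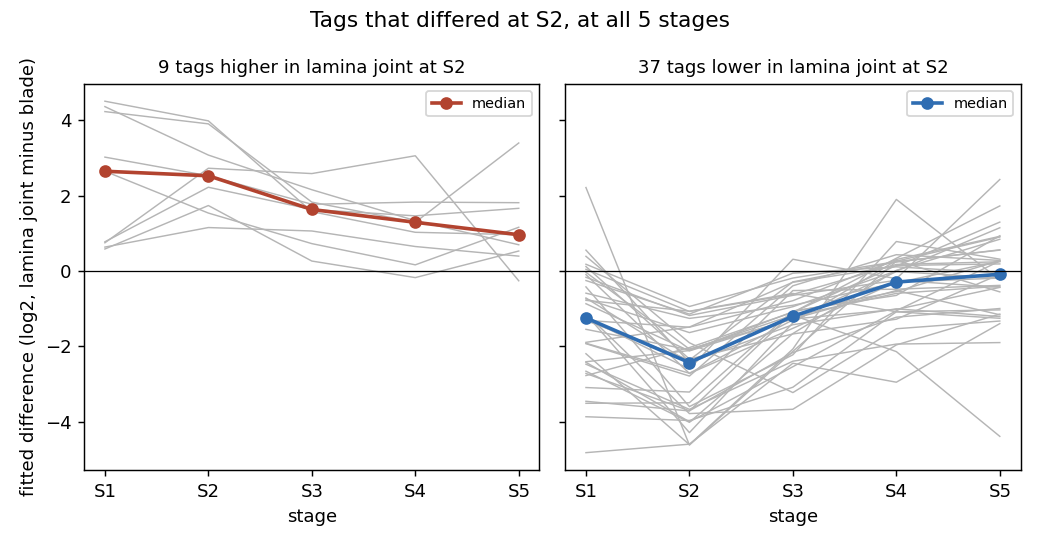
Fitted difference (log2, lamina joint minus blade) at each stage of the 9 tags higher and the 37 tags lower in lamina joint at S2; grey lines are tags and coloured lines medians. The median of the higher tags is 2.65 at S1 and 0.97 at S5, and that of the lower tags is lowest at S2, at -2.43, and -0.08 at S5.

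Whether the difference at S2 departed from that at the other stages was tested directly, as the S2 difference minus the mean difference at S1, S3, S4 and S5. In edgeR's quasi-likelihood test 6 of the 299 tags (2.01%) had a lower difference at S2 and 0 a higher one, with 57 tags at an unadjusted p under 0.05. DESeq2 gave 16 lower and 4 higher, and limma-voom 9 and 1. The count was unstable: it was 20 without the first lamina joint S1 library, 8 without the second, 6 without the second blade S1 or the first blade S3 library, and 0 to 3 without any other single library. With other scalings it was 0 to 3.

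Tag_225 and tag_017 led these 6 by size. For tag_225 the S2 difference minus that at the other stages was -3.96 ± 0.72 (SE) on the log2 scale, with an edgeR adjusted p of 0.0224, and the call was lost in 10 of 31 refits (adjusted p up to 0.168). Its fitted differences from S1 to S5 were -2.19, -4.61, -2.07, 1.90 and -0.23. The lamina joint means were 11.4, 3.21, 42.0, 32.9 and 76.5 CPM, and the blade means 47.3, 76.5, 178, 8.04 and 92.8 CPM. The lamina joint means at S1 and S2 rest on 8 and 4 counts, so no lowest stage is read from them. The blade had its highest mean at S3.

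Tag_017 had 34.5 and 102 CPM in lamina joint S2, against 578 and 1657 CPM in blade S2, with replicates of each tissue about a factor of 3 apart. Its S2 difference was -4.01 ± 0.73 (SE) on the log2 scale, with an edgeR adjusted p of 0.00238. That difference minus the one at the other stages was -3.15 ± 0.76 (SE) on the log2 scale, with an edgeR adjusted p of 0.0477. That second call was lost in 22 of 31 refits (adjusted p up to 0.211). The lamina joint means from S1 to S5 were 88.2, 68.4, 271, 393 and 368 CPM, and the blade means 538, 1117, 854, 386 and 204 CPM. The tissues thus stood near each other at S4.

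The third and the eighth most abundant tags were also among the 6. Their S2 difference minus that at the other stages was -1.50 ± 0.32 and -1.93 ± 0.44 (SE, log2 scale), with an edgeR adjusted p of 0.0477 for both. Those calls were lost in 19 and 21 of 31 refits. The third had lamina joint means of 32696, 25322, 49519, 54529 and 89256 CPM from S1 to S5 and blade means of 54463, 78463, 95237, 54386 and 40188 CPM. Its fitted difference was -1.63 at S2 and 1.15 at S5, and it passed the threshold at both stages (edgeR adjusted p = 0.0302 at S5). The eighth had fitted differences below 0 at each stage, at -2.72, -3.71, -2.16, -1.22 and -0.99 from S1 to S5. It did not pass the threshold at S4 and S5 (edgeR adjusted p = 0.124 and 0.169).

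**Figure D5:**
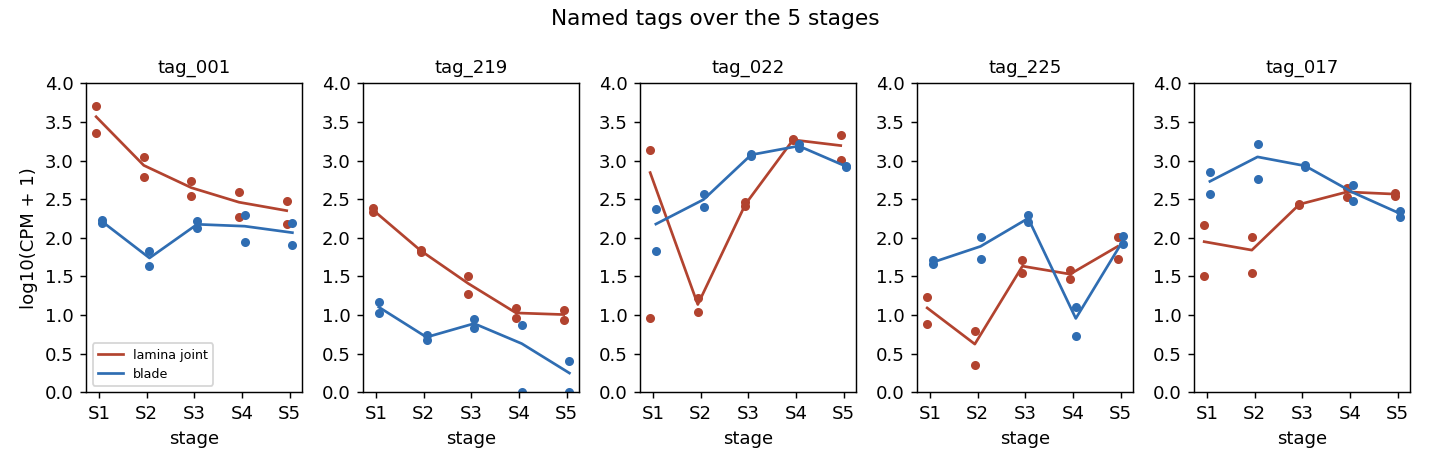
Level of 5 tags, as log10 of CPM plus 1, in lamina joint and blade from S1 to S5; points are libraries and lines join the means, n = 2 per tissue and stage. Tag_001 and tag_219 lie higher in the lamina joint at S2, tag_022, tag_225 and tag_017 lower, and the lamina joint S1 replicates of tag_022 stand far apart.

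The 46 tags were also set beside the change over development, in contrasts of other stages that were chosen after the S2 result was seen. No S2 mean enters these contrasts, but the S2 libraries do, through the shared estimate of spread, the scaling and the filter on low counts. A tag with a small estimated spread is called more readily in each contrast, so the counts of calls are not independent of the choice of tags. Of the 9 higher tags, 7 were lower at S3 than at S1 in the lamina joint, where 7.36% of all tested tags were (4 without the first lamina joint S3 library and 3 without the second blade S2 library). Of the 37 lower tags, 2 were lower at S3 than at S1 in the lamina joint, where 7.36% of all tested tags were. Another 14 were higher, where 9.7% of all tested tags were. That count was 4 without the first lamina joint S1 library, 5 without either lamina joint S3 library, 7 without the first blade S2 library, and 8 without the second lamina joint S2, the first lamina joint S4 or any blade S4 or S5 library. In the blade, 7 of the 37 lower tags passed the threshold as higher at S3 than at S1, where 3.68% of all tested tags did, and 1 as lower. That count of 7 was 9 and 13 without the first and the second lamina joint S1 library, 0 to 4 without any other single library and 4 to 13 under the other settings. By fitted values alone, 31 of the 37 in the blade and 27 of the 37 in the lamina joint lay above S1 at S3, against 48.5% and 50.8% of all tested tags. At S5, by the same measure, 33 of the 37 lower tags lay above S1 in the lamina joint and 24 of 37 in the blade, against 52.8% and 45.2% of all tested tags. All 9 higher tags had fitted values below S1 at S5 in both tissues, where 47.2% and 54.8% of all tested tags did.

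The means of tag_001 and tag_219 are given stage by stage. In the lamina joint the mean of tag_001 was 3703, 868, 445, 288 and 224 CPM from S1 to S5, while its blade means lay between 53.8 and 162 CPM. Tag_219 had lamina joint means of 228, 67.2, 24.5, 9.65 and 9.14 CPM and blade means of 0.772 to 11.7 CPM. The lamina joint S4 and S5 means of tag_219 rest on 9 and 4 counts and its blade means at S1, S2 and S3 on 13, 3 and 8 counts, so no order is read from them. For tag_001 the lamina joint mean was lower at each later stage, but the replicates of S3 and S4 overlapped, as did those of S4 and S5. The blade mean of tag_001 at S2 lay below those of S1 and S3.

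Over all 299 tags, the mean profile of lamina joint S2 had a Spearman correlation across tags of 0.884 with blade S2. It was 0.921 with blade S1, 0.920 with lamina joint S1, 0.934 with lamina joint S3 and 0.832 with blade S3. Blade S2 in turn had 0.952 with lamina joint S3, 0.952 with blade S1 and 0.956 with blade S3. The median absolute log2 difference per tag was 0.63 between lamina joint S2 and blade S2, 0.51 between lamina joint S2 and blade S1, 0.76 between lamina joint S2 and blade S3, and 0.36 between lamina joint S3 and blade S2. These values describe 2 libraries per group, share tags and libraries, and carry no test.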

How the data were processed

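Small RNA libraries of lamina joint and blade at 5 stages, 2 per group, were analysed, with groups and replicate numbers from the sample titles. The authors deposited 1 file per library of raw, whole-number counts for numbered tags. The submitters' processing notes name CASAVA and the build IRGSP-1.0 without their role. Which aligner and miRNA annotation were used, and how reads that match several miRNAs were handled, is not given in the sources used here. Tags of near-identical sequence could share or divide reads. No tested tag repeated the counts of another, but 18 untested tags with counts in the series repeated those of another tag.

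Counts were fitted with edgeR 4.0.16 in R 4.3.3 (glmQLFit, glmQLFTest, TMM; low tags were removed by filterByExpr at a count of 10 and a total of 15), with a mean for each of 10 groups over all 20 libraries and 10 residual degrees of freedom. Of 685 tags, 299 were tested. Tests were two-sided with Benjamini-Hochberg adjustment over the 299 tags and a threshold of 0.05. Standard errors came from the F statistic. Intervals cover counting error only. The fits were also run on simulated counts, with equal means in all groups except lamina joint S2. As many tags were raised there as lowered, so these runs cannot probe the uneven split of calls or the scaling shift.

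The comparison, lists and tests were chosen with earlier results of these data known. Named tags are the 2 per direction with the largest fitted difference that passed the threshold and averaged at least 10 CPM over the S2 libraries, plus the 10 most abundant tags by rank. Alternatives were 5 other scalings, no filter or a mean of 10 CPM, other tools (limma 3.58.1 with voom; DESeq2 1.42.0), a robust edgeR fit, a block for the replicate number, the S2 libraries alone and leaving out each library. Lists of miRNA families could not be used without names. Figures were drawn with matplotlib 3.10.9.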

Additional observations from a re-analysis of the deposited data

Results flagged for a closer look

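The tissue difference at S2 departed from the mean tissue difference at the other 4 stages in 6 tags, by a test of that difference itself (edgeR, adjusted p from 0.0224 to 0.0477). On the log2 scale the S2 difference minus that mean was -3.96 in tag_225, -3.15 in tag_017, -1.93 in the eighth most abundant tag and -1.50 in the third. In the other two, which ranked 88th and 121st in abundance at S2, it was -3.09 and -2.72. The tag ranked 121st had 60.4 and 81.3 CPM in lamina joint S2, against 287 and 144 CPM in blade S2, and missed the threshold at S2 by itself (edgeR adjusted p = 0.0757). It passed the threshold at S5 in the other direction, with a fitted tissue difference of 2.77 (edgeR adjusted p = 0.0202). The tag ranked 88th had nearly the same fitted tissue difference at S1 (-3.46, edgeR adjusted p = 0.00324) as at S2 (-3.71, edgeR adjusted p = 0.00216), and -1.10, 0.34 and 1.73 at S3, S4 and S5, so S1 shared the low value. For both tags the departure missed the threshold in 22 of 31 refits (adjusted p up to 0.240 for the 121st and 0.230 for the 88th). The lamina joint was also called lower at S1 for tag_225 (-2.19, edgeR adjusted p = 0.0424), tag_017 (-2.66, 0.0306) and the eighth (-2.72, 0.000739). At S3 it was called lower for tag_225 (-2.07, edgeR adjusted p = 0.0427) and the eighth (-2.16, 0.0158), but not for tag_017. The third was not called at S1 or S3. A departure from the mean of 4 stages thus does not make a difference particular to S2.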

How the results depend on the processing

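The count of 46 tags at S2 was 34 to 56 over 12 other settings, in which 32 to 45 of the same tags kept their call, and 21 to 50 over leaving out each of the 20 libraries. The 6 tags whose S2 difference departed from the other stages became 1 with DESeq2 size factors, upper quartile factors or a mean of at least 10 CPM, 3 with total counts, 0 with TMM or total counts without the most abundant tag, 10 with limma-voom, 20 with DESeq2 and 23 with no filter; leaving out each library gave 0 to 20. The cause was not tested. None of the 46 tags had a fitted S2 difference of the other sign in any of the 32 refits (3 were filtered out of 1 refit each), nor did the 6 in any of 31. With the replicate number as a block the counts were 45 and 4. The numbers were not taken to pair the libraries: deviations of same-numbered libraries correlated at 0.136 between the S2 tissues and at -0.265 to 0.564 over 45 pairs of groups, 13 of them over 0.1. The scaling moved the median of all tags from -0.09 with TMM to 0.21 with upper quartile factors. Depth limits tags under about 11.3 CPM, the level of 3 counts in the smallest S2 library.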

Other observations

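Some called tags had neighbouring numbers. Of the 51 tested tags whose number lies next to that of a tag lower in lamina joint S2, 10 were lower themselves (19.6%), against 27 of the other 248 tested tags (10.9%). Next to a tag higher in lamina joint S2 lay 17 tested tags. Of these, 2 were higher themselves (11.8%), against 7 of the other 282 (2.48%). These 2 lay next to each other, so a single adjacency was counted from both sides. The 10 lower tags likewise formed a few short runs of adjacent numbers. The files do not say how tags were numbered, and tags of similar sequence could share reads, so this is given as a count without a test.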
